A study of Mus musculus with 21 samples.

Results

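The inguinal lymph nodes of unirradiated Ifnk TG mice were compared with those of unirradiated wild-type (WT) mice, to give the effect of the transgene before any ultraviolet B (UVB) exposure. The comparison was chosen by the labels alone: genotype Ifnk TG or WT, tissue inguinal lymph node, and treatment NoTx. It held 6 of the 21 libraries of the series, 3 of each genotype. The other libraries came from nodes of the same genotypes after UVB (3 of each) and from skin (9).

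Ifnk TG mice carry Ifnk, the gene for interferon kappa, under the keratin 14 promoter, which is active in basal keratinocytes of the epidermis and not in lymphocytes. The transgene was made on the C57Bl/6 background with a PiggyBac vector and backcrossed to BALB/c, and WT mice were BALB/c. The study used mice of 3 and 12 months of age, and the labels do not give the age of the mice whose nodes were sequenced. NoTx mice were not irradiated, whereas UVTx mice were irradiated on the shaved back repeatedly and rested before harvest. The labels name no sex, litter or mouse for a library. The study counts 3 mice of each genotype for the irradiated nodes and gives no such count for the unirradiated ones. The p-values thus measure the spread between these samples, which for the unirradiated nodes may be technical. Libraries are named below by genotype and by the number in their label, which gives WT 1, 2 and 3 and TG 4, 5 and 6 without UVB, and WT 7, 8 and 9 and TG 10, 11 and 12 after UVB.

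Interferon kappa is a type I interferon made mainly by keratinocytes. Type I interferons bind the receptor of IFNAR1 and IFNAR2, which activates the kinases JAK1 and TYK2 and, through them, STAT2 and IRF9, which take part in the complex that binds the interferon-stimulated response element in the promoters of interferon-stimulated genes (ISGs). Many ISGs encode antiviral proteins, and plasmacytoid dendritic cells of lymphoid tissue are a known source of type I interferon.

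The 6 libraries held between 31643738 and 36428435 counts, so that 3 counts made up 8.24e-06% to 9.48e-06% of a library, a floor that covers counting error only. Of 16173 genes tested with edgeR's quasi-likelihood test, 0 (0%) passed an adjusted p of 0.05, the lowest adjusted p was 1, and 549 (3.39%) had an unadjusted p under 0.05, 286 of them higher in Ifnk TG (1.77%) and 263 lower (1.63%). DESeq2 called 4 of 11492 genes (0.0348%), and 622 of 27761 (2.24%) had an unadjusted p under 0.05 with it. Library TG 5 stood apart, with 10.1% of its counts from mitochondrial genes against 6.29% to 8.86% in the other 5 libraries and 0.160% from immunoglobulin genes against 0.241% to 0.312%. Because no gene passed edgeR's test, the text below says lower or higher of values and gives unadjusted p-values from edgeR, which alone call nothing. In whole nodes, fewer cells of a type and less RNA per cell cannot be told apart.

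Ifnk itself was listed at 0 counts in all 12 node libraries, with and without UVB. Keratin genes were nearly absent as well, with at most 1 count of Krt14 and at most 2 of Krt5 in a node library, so the node libraries held next to no RNA from the cells in which the transgene is active. In skin it was near the limit of detection, with no counts in WT (3 libraries), 6 and 0 counts in nonlesional Ifnk TG skin, and 5 to 14 counts in lesional Ifnk TG skin. The node data thus hold no direct check of the genotype labels from Ifnk. Of 18 type I interferon genes (Ifna, Ifnb1, Ifne and others), none had enough counts for a test. Their summed level was 0 CPM (counts scaled to library size by the TMM method) in 5 of the 6 unirradiated libraries and 0.0865 CPM in TG 6.

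The receptor and signalling genes were at like levels in the 2 genotypes. Ifnar1 measured 138, 129 and 138 CPM in WT 1 to 3 and 130, 145 and 148 CPM in TG 4 to 6, and Ifnar2 66.3, 58.4 and 64.0 CPM in WT and 67.9, 63.9 and 68.4 CPM in TG nodes. The groups overlapped for both receptor chains, with log2 fold changes (Ifnk TG over WT) of 0.07 (95% confidence interval -0.14 to 0.27) and 0.09 (-0.11 to 0.28). The kinases Jak1 and Tyk2 differed by -0.11 (-0.33 to 0.11) and 0.07 (-0.15 to 0.29). Of the 17 receptor and JAK-STAT genes, 3 had an unadjusted p under 0.05, all lower in Ifnk TG nodes, against 1.63% of all genes, and 0 were higher. They were Irf9, Stat2 and Usp18, which are themselves ISGs, and the median of the 17 was 0.01 against -0.00 over all genes. Ptpn6 and Stat3, the other abundant members, measured 0.01 and -0.01. Ptpn6 encodes a phosphatase that limits cytokine signalling, and Stat3 a transcription factor shared with cytokines of the interleukin-6 family.

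ISGs were lower in the unirradiated Ifnk TG nodes than in WT nodes, and libraries of the 2 genotypes often did not overlap. Of 54 listed type I ISGs, 53 passed the filter on low counts (Oas1g did not), and 52 of these had a lower fitted level in Ifnk TG, against 51% of all tested genes. In 41 of 53 (77.4%), all 3 Ifnk TG libraries lay below all 3 WT libraries, which held for 4.93% of all genes, and 39 had an unadjusted p under 0.05 in that direction, against 1.63%. None was higher by either measure, and 0 passed the adjusted test. The ISGs moved together between libraries, with WT 2 the highest unirradiated library in 51 of the 53. Counts of ISGs here and below are therefore not counts of independent results. The median log2 fold change was -0.99, from -4.30 for Ifit3b to 0.08 for Siglec1. By fitted fold, 26 of the 53 were at least 2-fold lower and 10 at least 4-fold lower, where 136 of all 16173 genes (0.841%) were at least 2-fold lower.

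**Figure D1:**
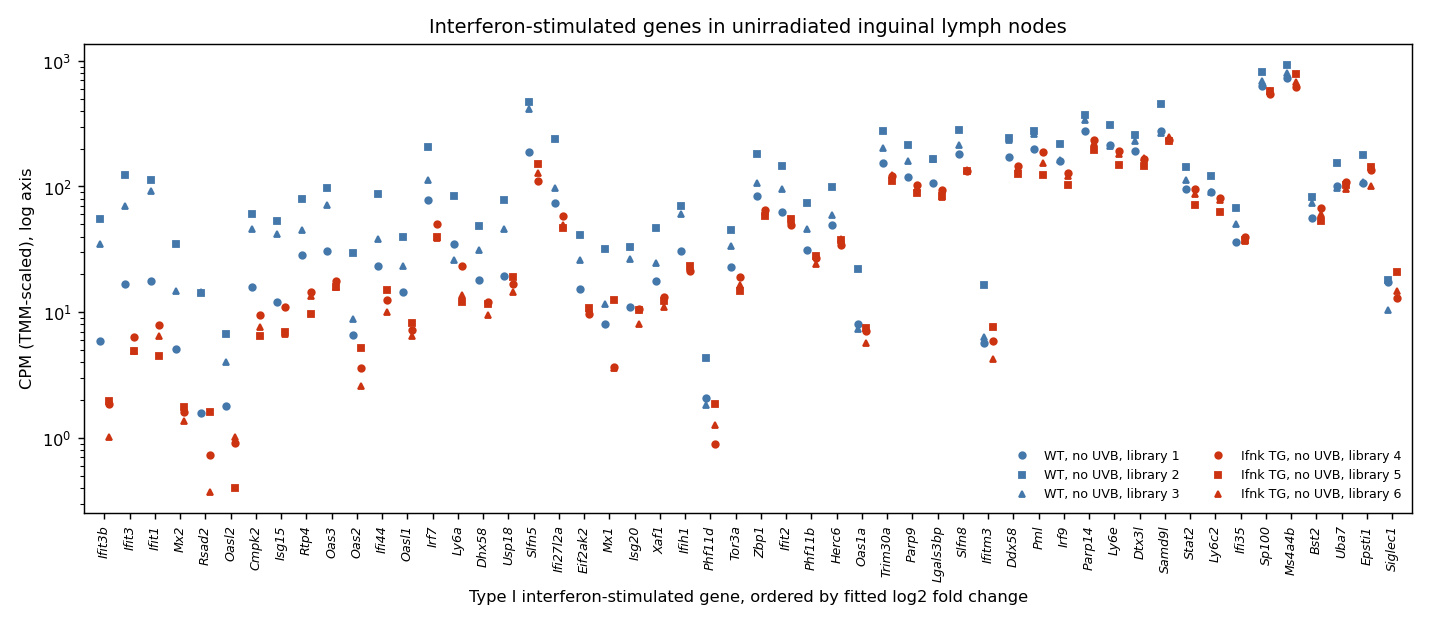
Level of 52 of the 53 tested ISGs in the 6 unirradiated node libraries, in TMM-scaled CPM on a log axis, with genes ordered by fitted log2 fold change (Ifnk TG over WT) from -4.30 at the left to 0.08 at the right. Each point is 1 library, the WT libraries (blue) fan out within a gene and the Ifnk TG libraries (red) lie close together near or below the lowest WT library.

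The IFIT genes, whose products bind viral RNA that lacks the cap marks of host mRNA, differed most. Ifit1 measured 17.7, 112 and 91.8 CPM in WT 1 to 3 and 7.97, 4.48 and 6.48 CPM in TG 4 to 6. All 3 Ifnk TG libraries were below all 3 WT libraries, and WT 1 was several-fold below the other two WT libraries. The log2 fold change was -3.54 (SE 1.04, edgeR unadjusted p = 0.00802, adjusted p = 1). Ifit3 measured 16.7, 123 and 70.0 CPM in WT and 6.41, 4.94 and 4.93 CPM in Ifnk TG nodes, a log2 fold change of -3.68 (SE 1.17). Its near-identical copy Ifit3b, with which reads may be shared, differed by -4.30, and Ifit2 by -0.94. These 4 genes were all separated between genotypes, and with 2 neighbours of the same family (Ifit1bl1 and Ifit1bl2) and Papss2, which was higher, they made up 7 of 24 tested genes (29.2%) with an unadjusted p under 0.05 on chromosome 19 between positions 30000001 and 35000000 (GRCm38). Ifit1 lies at chr19:34640871-34650009 and Ifit3 at chr19:34583531-34588731.

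Promoters of Ifit1, Ifit3, Ifit3b and some other ISGs carry letters of the interferon-stimulated response element by the search below, and that of Ifit2 does not. Stretches from some that do are shown as a description. RefSeq promoters (GRCm38.p6, 250 bases before to 50 after the start) were matched for 38 of the 53 ISGs. GAAANNGAA, searched on both strands, was found in 19 of 38 (50%) and in 9.76% of 27025 genes with a promoter. The stretches below are printed 5′ to 3′ on the strand of the gene, with the matches to GAAANNGAA or its reverse complement in capitals.
Ifit1 (chr19:34640772-34640821, + strand): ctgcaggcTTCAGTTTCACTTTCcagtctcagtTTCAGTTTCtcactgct
Ifit3 (chr19:34583366-34583443, + strand): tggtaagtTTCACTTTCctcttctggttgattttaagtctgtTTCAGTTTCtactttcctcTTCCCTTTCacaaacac
Isg15 (chr4:156200868-156200904, - strand): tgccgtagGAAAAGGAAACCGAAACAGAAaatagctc
Oas3 (chr5:120777712-120777742, - strand): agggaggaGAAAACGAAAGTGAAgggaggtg
Rsad2 (chr12:26456555-26456579, - strand): gtccaactTTCATTTTCagaaaaca
Ifih1 (chr2:62646351-62646375, - strand): aattcgcgTTCCCTTTCctgtttct
Matches overlapped one another in Ifit1, Isg15 and Oas3, and the Ifit3b stretch (chr19:34607762-34607839, + strand) had the same letters as that of Ifit3. Ifit1, Ifit3 and Isg15 held 3 matches each, Oas3 held 2, and Rsad2 and Ifih1 held 1. The 19 ISGs with a match had a median log2 fold change of -1.26 and the 19 without one -0.76. The element of interferon gamma signalling, searched as TTCNNNGAA on both strands, was in 7 of the 38 promoters (18.4%) and in 9.55% of all genes, with a median log2 fold change of -0.88 with and -0.93 without a match. A match is a description of these windows and not a binding site.

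Sensors of nucleic acid were lower as a group. Ddx58, which encodes the RNA sensor RIG-I, measured 171, 244 and 233 CPM in WT and 145, 126 and 139 CPM in Ifnk TG nodes. The groups did not overlap, and the log2 fold change of -0.66 (SE 0.15) had an edgeR unadjusted p of 0.000745. Ifih1, which encodes the RNA sensor MDA5, measured 30.7, 69.4 and 60.0 CPM in WT and 21.3, 23.5 and 22.3 CPM in Ifnk TG nodes, again without overlap. Its log2 fold change was -1.26 (SE 0.33) with edgeR and -1.25 (SE 0.283) with DESeq2, where it fell with an adjusted p of 0.0375. Dhx58, another member of the RIG-I family, and Zbp1, a sensor of Z-form nucleic acid, were lower by -1.55 and -0.99, so that 4 of 4 sensors were separated, with an unadjusted p under 0.05 in each. Over the whole ISG list 77.4% were separated in that direction, and over all genes 4.93%. The split by role was made after the values were seen, and the counts of the other role groups are to be read against the same shares. One such group, of 3 LY6 surface protein genes, was separated in all 3, with a median log2 fold change of -0.49. The endosomal sensors Tlr3 and Tlr7, which were not in the list and were chosen after their values were seen, measured 2.56 to 2.81 CPM against 4.10 to 10.8 CPM and 15.6 to 22.4 CPM against 31.7 to 39.5 CPM in Ifnk TG and WT nodes.

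Antiviral effectors showed the same order of libraries. Of the 6 genes for oligoadenylate synthetases, which make the activator of RNase L, and for the kinase PKR, 5 were separated and 4 had an unadjusted p under 0.05 (median log2 fold change -1.92). Oas3 measured 30.8, 96.7 and 71.3 CPM in WT and 17.6, 15.9 and 16 CPM in Ifnk TG nodes. The Ifnk TG libraries lay close together and below every WT library, with a log2 fold change of -2.0 (SE 0.61). Among 8 genes for Mx GTPases, viperin and other effectors, 4 were separated and 4 had an unadjusted p under 0.05. Of the whole ISG list 77.4% were separated in that direction, and of all genes 4.93%. Rsad2, which encodes viperin, overlapped: WT 1, at 1.57 CPM, was just below TG 5, at 1.62 CPM, while WT 2 and 3 were at 14.3 and 14.5 CPM and TG 4 and 6 at 0.730 and 0.375 CPM. Mx2 was separated, at 5.10, 34.8 and 14.6 CPM in WT and 1.59, 1.76 and 1.35 CPM in Ifnk TG nodes, and Mx1 was not (log2 fold change -1.38, SE 1.04).

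Of the 4 genes of the ISG15 pathway, 3 were separated, against 77.4% of the whole ISG list and 4.93% of all genes. Isg15, a ubiquitin-like protein attached to other proteins after interferon, measured 12.0, 53.1 and 41.9 CPM in WT and 11.0, 7.01 and 6.71 CPM in Ifnk TG nodes. The lowest WT library (WT 1) and the highest Ifnk TG library (TG 4) were close, and the log2 fold change was -2.11 (SE 0.77). Usp18, which removes ISG15 and dampens receptor signalling, measured 19.3, 78.4 and 45.8 CPM in WT and 16.8, 19 and 14.4 CPM in Ifnk TG nodes. Its groups were separated only by the small gap between WT 1 (19.3 CPM) and TG 5 (19 CPM). Uba7, the enzyme that activates ISG15, overlapped (log2 fold change -0.20, SE 0.25).

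The transcription factors of the pathway were lower to a lesser extent. Irf9 measured 159, 218 and 164 CPM in WT and 129, 103 and 121 CPM in Ifnk TG nodes, a log2 fold change of -0.61 (SE 0.15, edgeR unadjusted p = 0.00132). Its 3 unirradiated Ifnk TG libraries were the lowest 3 of all 12 node libraries. That order was found for 12 of the 53 ISGs and for 94 of all tested genes (0.581%). Irf7, which amplifies interferon gene transcription, measured 78.7, 208 and 112 CPM in WT and 49.9, 39.9 and 38.7 CPM in Ifnk TG nodes (log2 fold change -1.63, SE 0.51). Stat2, a signal transducer of the receptor, measured 95.7, 142 and 112 CPM in WT and 94.9, 70.9 and 86.4 CPM in Ifnk TG nodes. Its groups were separated only by the small gap between WT 1 and TG 4 (log2 fold change -0.47, SE 0.19). Of the 9 interferon regulatory factors, 2 (Irf7 and Irf9) had an unadjusted p under 0.05 in the lower direction, and the median was -0.10, or 0.09 without TG 5. Irf8, which myeloid and B cells use, measured 0.24 (SE 0.11) on the log2 scale, Irf1 0.04 and Irf2 -0.14, with overlapping groups in each.

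Smaller groups of ISGs had smaller differences. The ADP-ribosyltransferases Parp9 and Parp14 and their partner Dtx3l were separated with a median log2 fold change of -0.60, and the nuclear body genes Pml and Sp100 with -0.50. Sp100 measured 632, 816 and 689 CPM in WT and 546, 575 and 576 CPM in Ifnk TG nodes. The most abundant other members, Ms4a4b and Samd9l, differed by -0.24 (SE 0.14) and -0.49 (SE 0.32), where Ms4a4b, a membrane protein of T cells, overlapped and Samd9l, a restriction factor of poxviruses, did not. Siglec1, a marker of the macrophages that line the sinuses, and Epsti1 overlapped, with 0.08 (SE 0.29) and -0.05 (SE 0.22). The death ligand Tnfsf10 (TRAIL), chosen after its values were seen, was separated, at 45.9, 56.6 and 51.6 CPM in WT and 37.1, 38.7 and 41.0 CPM in Ifnk TG nodes.

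The ISG levels spread more among WT than among Ifnk TG nodes. WT 2 was the highest of the 6 libraries in 51 of 53 ISGs, WT 1 was the lowest WT library in 45, and the highest WT library exceeded the lowest by a median of 2.35-fold, against 1.29-fold among Ifnk TG libraries. The mean log2 CPM of the ISGs, centred on the 12 node libraries, was -0.06, 1.2 and 0.57 in WT 1 to 3 and -0.53, -0.58 and -0.70 in TG 4 to 6. The WT values spread over more than the distance from WT 1 to the Ifnk TG group, which itself stayed within a narrow band. Without WT 2 the median log2 fold change was -0.58 and 22 of the ISGs had an unadjusted p under 0.05 in the lower direction. Without WT 1 the median was -1.21, so that the size of the difference rested on which WT nodes were counted, and its sign did not. What set WT 2 apart from WT 1 was not tested.

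Genes that respond mainly to interferon gamma differed less. Of 26 listed GTPases and chemokines 24 were tested, 7 had an unadjusted p under 0.05 and all 7 were lower (1.63% of all genes), 5 were separated in that direction (20.8% of the list, 4.93% of all genes) and 1 in the other, and the median log2 fold change was -0.28. Gbp4, Ifi47, Tgtp2 and Gbp9, the most abundant, encode GTPases that attack vacuoles of intracellular microbes. Ifi47 measured 247, 383 and 254 CPM in WT and 249, 215 and 237 CPM in Ifnk TG nodes, and Tgtp2 260, 386 and 232 CPM against 240, 178 and 222 CPM. In both, TG 4 overlapped the WT libraries and WT 2 was far above the rest. Gbp9 was separated (log2 fold change -0.49, SE 0.17) and Gbp4 was not (-0.28, SE 0.17); the 2 genes overlap on chromosome 5, so their reads may be mixed. The chemokine gene Cxcl10, chosen after its values were seen, was at 0.754, 2.13 and 0.706 CPM in WT and 0.324, 0.397 and 0.403 CPM in Ifnk TG nodes. Cxcl9, which follows interferon gamma more strictly, was at 4.24 to 9.50 CPM in WT and 6.20 to 9.08 CPM in Ifnk TG nodes, with a log2 fold change of 0.08.

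Antigen presentation genes differed by small steps, mostly in the lower direction. Of 21 tested MHC class I and immunoproteasome genes, 17 had a lower sign, 6 were separated in that direction (28.6%, against 4.93% of all genes) and 2 (H2-T23 and Tapbp, a nonclassical class I chain and the peptide loading factor tapasin) had an unadjusted p under 0.05 (1.63% of all genes), with a median of -0.12. B2m, the light chain of class I molecules, measured 1540, 1665 and 1553 CPM in WT and 1485, 1322 and 1381 CPM in Ifnk TG nodes, and H2-D1 1742, 1706 and 1831 CPM against 1640, 1549 and 1548 CPM. Both were separated by small steps, with log2 fold changes of -0.18 (SE 0.15) and -0.16 (SE 0.11). The chaperones Calr and Pdia3 differed by -0.12 each. All 12 tested MHC class II genes had a lower sign with a median of -0.19, and 0 were separated. Cd74, the invariant chain, measured 2689, 2854 and 3721 CPM in WT and 3472, 1676 and 2868 CPM in Ifnk TG nodes, where only TG 5 was below the WT range. Without TG 5 the log2 fold change turned from -0.21 to 0.03 for Cd74 and from -0.19 to 0.04 for H2-Ab1. H2-Aa and H2-Ea, with -0.31 (SE 0.26) and -0.25 (SE 0.21), were also lowest in TG 5. TG 5 also had the lowest summed level of B cell markers, 3415 CPM against 5132 to 6283 CPM in the other 5 libraries, and the part of B cell content in the class II values was not tested.

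**Figure D2:**
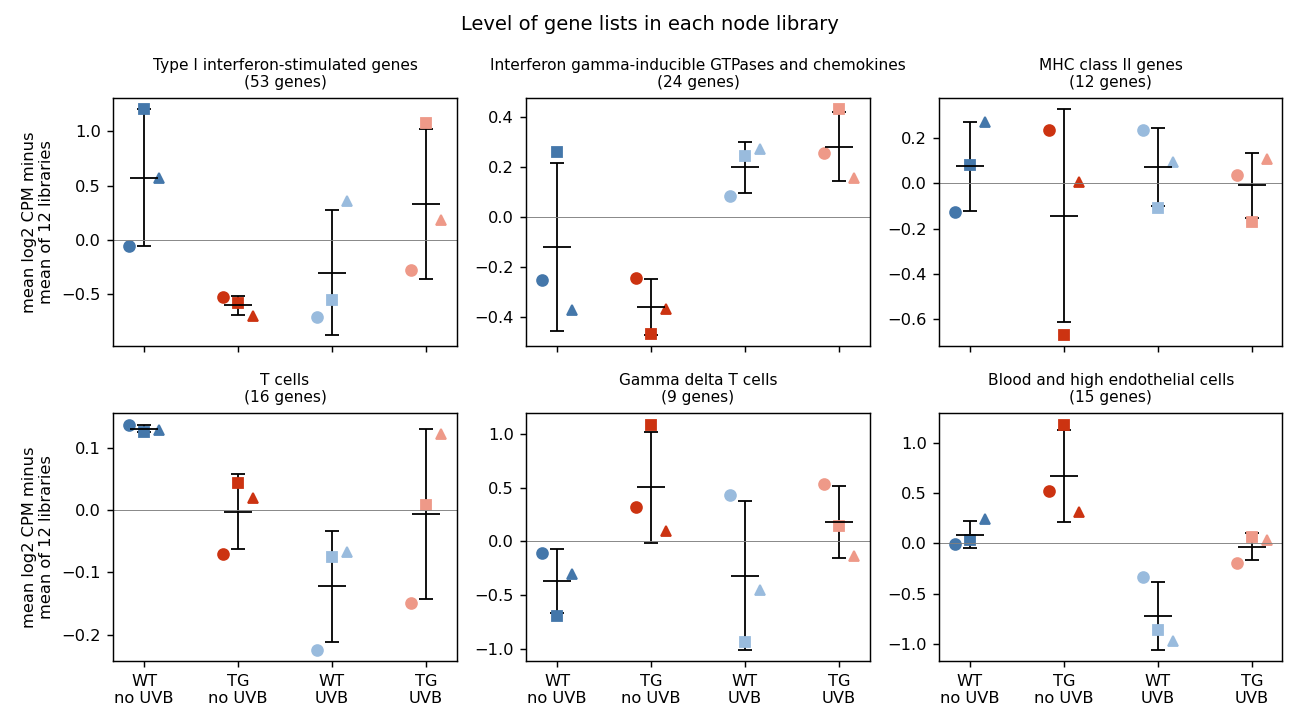
Mean log2 CPM of 6 gene lists in each of the 12 node libraries, centred on the mean of the 12. Points are libraries, the long bar is the group mean and the whiskers are 1 SD (n = 3); for the ISGs the unirradiated Ifnk TG libraries lie at -0.53, -0.58 and -0.70, below the WT libraries, and after UVB the genotypes overlap.

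Cell type markers showed the nodes to be made up of lymphocytes. The summed level of 16 T cell markers was 5225 to 5274 CPM in WT and 4630 to 4978 CPM in Ifnk TG nodes, and that of 16 B cell markers 5132 to 6261 CPM and 3415 to 6283 CPM. T cell genes were slightly lower in Ifnk TG nodes: 15 of 16 had a lower sign and 6 were separated (37.5%, against 4.93% of all genes), with a median log2 fold change of -0.12 and an unadjusted p under 0.05 for Cd2 and Trbc2. Cd8b1, the beta chain of CD8, measured 274, 262 and 266 CPM in WT and 228, 228 and 236 CPM in Ifnk TG nodes. Cd4 overlapped (464 to 502 CPM against 427 to 476 CPM). These markers were lower together with the ISGs, and their part in the ISG values was not tested. Naive T cell, regulatory T cell, natural killer cell and effector T cell lists had medians of -0.12, -0.05, -0.15 and -0.07. For plasmacytoid dendritic cells the median was 0.12, with 7 of 12 genes higher and 5 lower in sign. Of the 12, 8.33% were separated in the higher direction and 16.7% in the lower, against 5.52% and 4.93% of all genes. Siglech, a receptor particular to these cells, was higher in all 3 Ifnk TG libraries (edgeR unadjusted p = 0.0185). The ISG Irf7 and the sensor gene Tlr7 of the same list were lower.

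Genes of innate-like T cells were higher in the Ifnk TG nodes at low levels. Of 9 tested gamma delta T cell genes, 4 were separated and had an unadjusted p under 0.05 in the higher direction (5.52% and 1.77% of all genes), and the median log2 fold change was 1.07. Cd163l1, a scavenger receptor of interleukin-17-producing gamma delta T cells, measured 1.33, 0.470 and 0.583 CPM in WT and 2.95, 5.53 and 2.36 CPM in Ifnk TG nodes. All 3 Ifnk TG libraries were above all WT libraries and TG 5 was the highest. Trgc1 and Zbtb16 were separated in the same way, whereas Trdc, the constant gene of the delta chain, overlapped (13.8 to 17.5 CPM against 13.2 to 19.3 CPM, log2 fold change 0.01). The median of the list was 0.48 without TG 5.

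Several stromal and myeloid lists had higher medians in Ifnk TG nodes, with TG 5 the highest library in many of them. All 11 tested lymphatic endothelial genes had a higher sign (median 0.56, or 0.20 without TG 5), with a summed level of 65.0 to 77.3 CPM in WT nodes, 78.0 and 80.3 CPM in TG 4 and TG 6 and 173 CPM in TG 5. Marco, a scavenger receptor of lymphatic endothelium and of medullary macrophages, measured 3.44, 1.79 and 5.53 CPM in WT and 6.19, 14.9 and 7.26 CPM in Ifnk TG nodes. Blood endothelial genes had a median of 0.49 (0.28 without TG 5), while their summed level, set by the most abundant members, was 291 to 339 CPM in WT and 280 to 293 CPM in Ifnk TG nodes. Other lists rested on TG 5: without it the median went from 0.37 to 0.04 for reticular stromal genes, from 0.28 to -0.06 for monocyte and macrophage genes and from 0.31 to 0.04 for conventional dendritic cell genes. The 7 tested of 14 neutrophil genes were all higher in sign (median 0.94, or 0.76 without TG 5), at a summed level of only 6.07 to 10.3 CPM in WT and 11.9 to 19.8 CPM in Ifnk TG nodes. The 7 untested neutrophil genes, Ly6g and Mpo among them, were too low for the filter. Erythroid genes, a measure of blood, had a median of 0.54, with summed levels of 181 to 333 CPM in WT and 326 to 366 CPM in Ifnk TG nodes. The part of these cell contents in the other results was not tested.

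**Figure D3:**
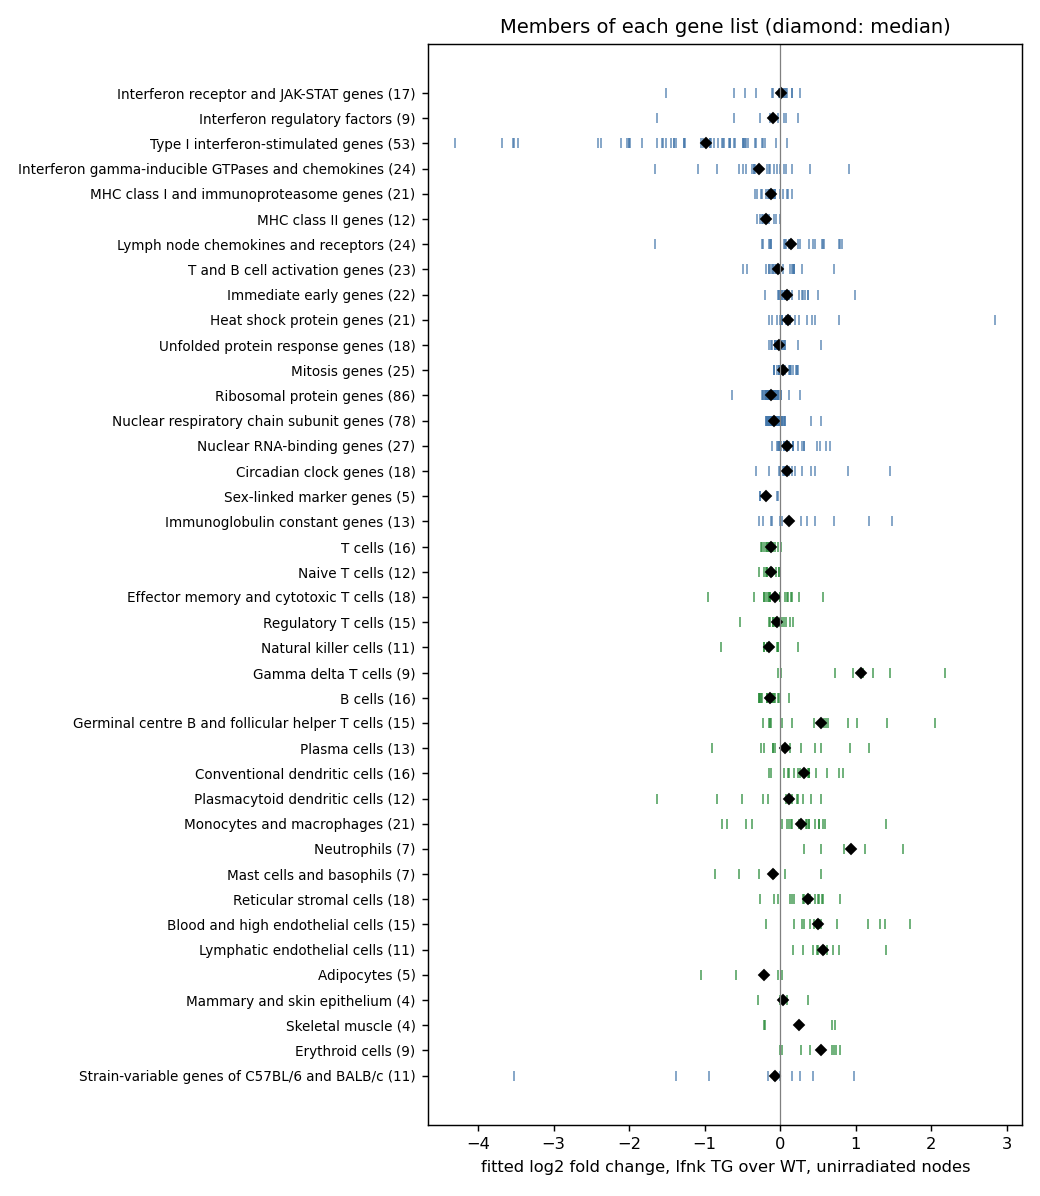
Fitted log2 fold change (Ifnk TG over WT, unirradiated nodes) of every tested member of 40 gene lists, with the number of tested genes in brackets and the median as a diamond. Type I ISGs form the list with the lowest median (-0.99), and gamma delta T cell genes that with the highest (1.07).

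Lists of general cell functions had small median differences, though in some of them most members shared a sign. Of ribosomal protein genes 82 of 86 had a lower sign, and of nuclear-encoded respiratory chain genes 64 of 78, against 51% of all tested genes. In these lists 1.16% and 3.85% were separated in that direction, against 4.93% of all genes. Of immediate early genes 18 of 22 had a higher sign, and of heat shock genes 17 of 21, against 7924 of all 16173 tested genes. In the higher direction 18.2% and 14.3% of these 2 lists were separated, against 5.52% of all genes. The median log2 fold change was -0.12 for ribosomal protein genes, -0.08 for nuclear-encoded respiratory chain genes, 0.10 for heat shock genes, 0.09 for immediate early genes, -0.01 for unfolded protein response genes, 0.03 for mitosis genes and 0.11 for immunoglobulin constant genes, with 0 genes past an adjusted p of 0.05 in any list. Of 18 circadian clock genes 3 had an unadjusted p under 0.05, all higher, including Bhlhe40, against 1.77% of all genes in that direction, and the median was 0.09. Chemokine genes of the node had a median of 0.15, lymphocyte activation genes -0.03 and plasma cell genes 0.07. Germinal centre genes had a higher median of 0.54, which was 0.0028 without TG 6. Mast cell, adipocyte, epithelial and muscle lists, of which 4 to 7 genes each passed the filter, had medians of -0.10, -0.22, 0.04 and 0.24. Of 11 tested genes known to vary between the C57BL/6 and BALB/c strains, 4 had an unadjusted p under 0.05, against 3.39% of all genes. Of these Glo1 and Cdkn2a were higher and H2-T24 and Mx2 lower (median of the list -0.07). In the lower direction 3 of the 11 were separated (27.3%, against 4.93% of all genes), and in the higher direction 2 (18.2%, against 5.52%). Mx1 and Mx2 of this list are also type I ISGs and were counted among them above. The part of strain background in these values was not tested.

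The gene with the lowest p lay outside the interferon system. Glo1, which is on the strain-variable list and encodes glyoxalase 1, an enzyme that clears methylglyoxal, measured 72.8, 75.8 and 79.6 CPM in WT and 95.5, 109 and 104 CPM in Ifnk TG nodes. The 2 groups were well apart, with means of 76.1 ± 3.41 and 103 ± 6.96 CPM (SD, n = 3 libraries), and the log2 fold change of 0.43 (SE 0.08) had the lowest p of all genes with edgeR (unadjusted p = 0.000119, adjusted p = 1). With DESeq2 Glo1 rose by 0.44 (SE 0.0913, adjusted p = 0.0127). The pseudogene Glo1-ps on chromosome 2, which may share its reads, differed by 0.44 as well. The neighbours of Glo1 on chromosome 17, Btbd9 and Dnah8, differed by -0.05 (SE 0.09) and -0.10 (SE 0.23).

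Ndfip2, an adaptor that recruits ubiquitin ligases of the NEDD4 family, measured 51.4, 54.6 and 55.2 CPM in WT and 42.6, 38.4 and 37.4 CPM in Ifnk TG nodes. The groups did not overlap. It fell by 0.44 on the log2 scale with DESeq2 (adjusted p = 0.0127), and edgeR gave -0.44 (SE 0.08, unadjusted p = 0.000131, adjusted p = 1). Safb, a nuclear protein that binds scaffold-attached DNA and RNA, measured 117, 88.4 and 97.4 CPM in WT and 131, 155 and 139 CPM in Ifnk TG nodes, again without overlap. It rose by 0.50 with DESeq2 (adjusted p = 0.0375). Its paralog Safb2, which starts 240 bases away in the opposite direction, was at 104, 69.7 and 91.9 CPM in WT and 123, 140 and 122 CPM in Ifnk TG nodes (log2 fold change 0.53, SE 0.14). With Sfpq these were the 3 of 27 nuclear RNA-binding genes that had an unadjusted p under 0.05, all higher, against 1.77% of all genes in that direction.

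The other genes with the lowest p in each direction were mostly of low level. Alox5, the lipoxygenase of leukotriene synthesis, had 3, 1 and 4 counts in WT and 21, 23 and 25 counts in Ifnk TG nodes, a log2 fold change of 2.92 (SE 0.65) without overlap. Tsc22d1, a leucine zipper protein, measured 20.8, 20.4 and 22.2 CPM in WT and 27.9, 28.5 and 27.3 CPM in Ifnk TG nodes. Maf, a transcription factor of helper T cells and macrophages, was at 27.3, 20.9 and 21.2 CPM and 32.2, 47.1 and 29.2 CPM. In all 3 the Ifnk TG libraries lay above the WT libraries. In the other direction Zfp365, a zinc finger gene, was at 8.09, 12.4 and 14.8 CPM in WT and 6.24, 4.85 and 7.35 CPM in Ifnk TG nodes, and AC167036.1, an unnamed gene, at 2.11, 3.17 and 2.24 CPM and 1.14, 0.738 and 1.35 CPM.

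**Figure D4:**
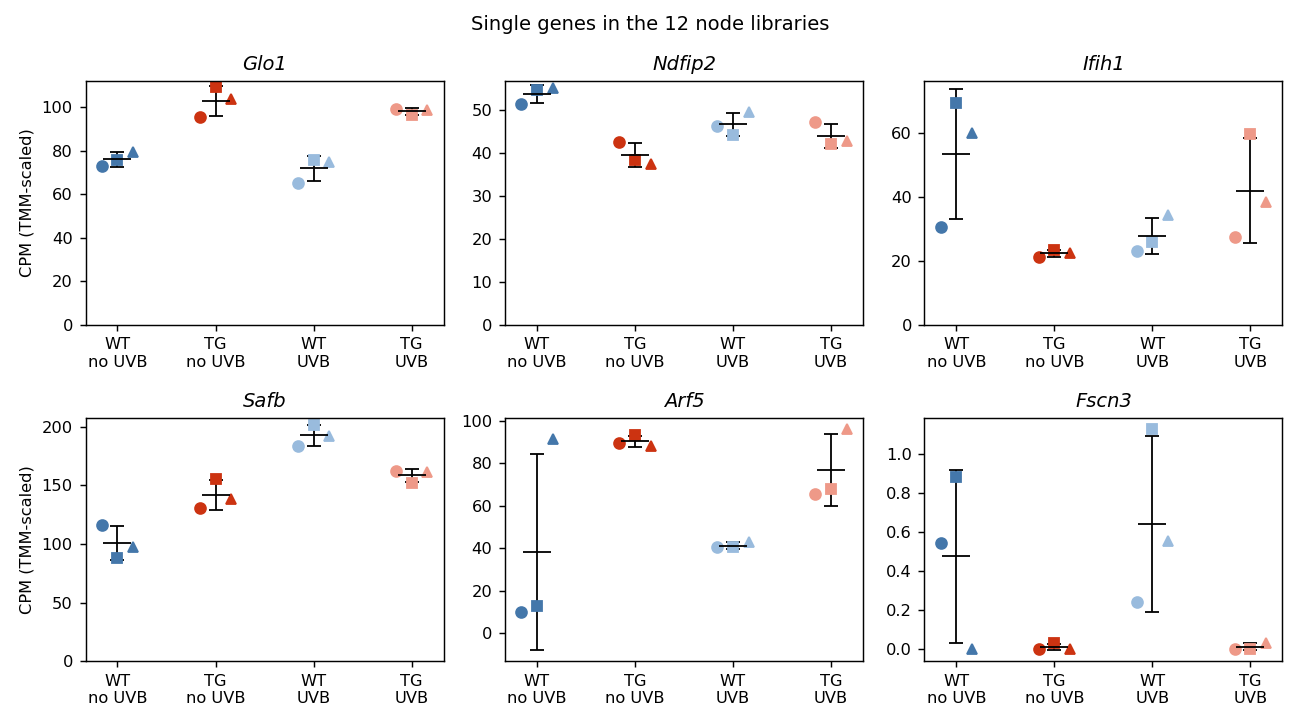
Level of 6 genes in the 12 node libraries, in TMM-scaled CPM, with points for libraries, a long bar for the group mean and whiskers of 1 SD (n = 3). Glo1 is higher in Ifnk TG than in WT nodes with and without UVB, Safb changes order after UVB, and Arf5 splits the unirradiated WT group, with WT 3 near the Ifnk TG libraries.

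The nodes after UVB gave a second estimate of the genotype effect from 6 other libraries. There, too, 0 of 16173 genes passed an adjusted p of 0.05 with edgeR (DESeq2 called 12 genes, 0.0649%), while 1131 had an unadjusted p under 0.05 (6.99%), 670 higher in Ifnk TG (4.14%) and 461 lower (2.85%). The libraries did not overlap for 5.39% of genes in the higher and 4.32% in the lower direction. The ISGs had the other sign after UVB: 50 of 53 were higher in Ifnk TG in fitted level, with a median log2 fold change of 0.57, and 6 had an unadjusted p under 0.05 in that direction. Ifit1, for example, measured 4.51, 6.91 and 30.3 CPM in WT 7 to 9 and 12.6, 79.0 and 22.7 CPM in TG 10 to 12, with overlapping groups (log2 fold change 1.44, SE 0.96). The spread again lay with single libraries, since WT 9 was the highest of its group in 52 ISGs and TG 11 of its group in 49. Of the 53 ISGs, 0 were separated in the lower direction without UVB and in the higher direction after it. This held for 40 of all 16173 tested genes, and a count of 0 among 53 is near that share. The test of the difference between the 2 estimates (interaction) had an unadjusted p under 0.05 for 45 of 53 ISGs, against 5.45% of all genes, and 0 passed the adjusted test. With the level of Xist as a covariate, 26 ISGs had an unadjusted interaction p under 0.05. Xist had 42 counts in TG 11 and 3 to 15 in the other node libraries, and the Y-linked gene Ddx3y had at least 2507 counts in each. By these 2 genes every node library came from male tissue. The covariate thus rests on few counts and does not separate sexes.

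**Figure D5:**
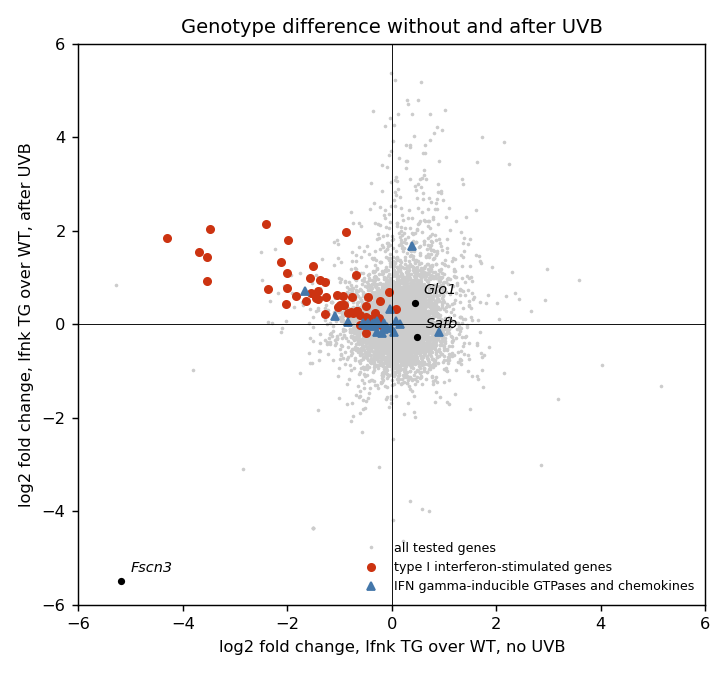
Fitted log2 fold change (Ifnk TG over WT) of all tested genes in unirradiated nodes (horizontal axis) and in nodes after UVB (vertical axis), from separate sets of 6 libraries. The ISGs (red) lie in the upper left, with medians of -0.99 without and 0.57 after UVB, and Glo1 and Fscn3 lie on the same side of 0 on each axis.

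The direction after UVB was counted for the genes with an unadjusted p under 0.05. Of the 286 higher genes with an unadjusted p under 0.05, 163 (57%) had the same sign after UVB and 34 (11.9%) also an unadjusted p under 0.05 there, against 46.2% and 5.01% of all genes with a log2 fold change over 0. Of the 263 lower genes these were 79 (30.0%) and 5 (1.90%), against 43.8% and 2.15% of all genes under 0. The difference between the directions was not tested. Glo1 was at 65.1, 75.8 and 74.7 CPM in WT and 99.3, 96.3 and 98.6 CPM in Ifnk TG nodes after UVB, without overlap, and rose there by 0.45 with DESeq2 (adjusted p = 0.00657). Pcdh17, an adhesion protein, and Cbr2, a carbonyl reductase, both chosen after their values were seen, differed by 1.5 and 1.70 without UVB and by 1.84 and 1.31 after it. Safb did not keep its direction, with 184, 202 and 192 CPM in WT 7 to 9 and 162, 152 and 161 CPM in TG 10 to 12.

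Skin gave a further view of the ISGs, from 12-month-old mice, in a separate fit. In nonlesional Ifnk TG skin (2 libraries) against WT skin (3), 46 of 53 ISGs had a lower sign, with a median log2 fold change of -0.31. With edgeR 0 of them had an unadjusted p under 0.05, against 7.67% of all 19101 genes. Of the 53 ISGs, 8 were separated in the lower direction and 1 in the higher. The shares of all skin genes with a lower sign or separated are not given here. The 2 Ifnk TG libraries could differ: Isg15 was at 6.40 and 14.6 CPM in nonlesional libraries 2 and 3, and at 11.9 to 16.5 CPM in WT skin. In lesional Ifnk TG skin Isg15 was higher, at 26.1 to 136 CPM. Ifit3 overlapped there, at 6.66 to 33.0 CPM against 20.0 to 37.6 CPM in WT skin. By staining, the paper reports more MX1 protein in nonlesional Ifnk TG than in WT epidermis. It also reports an interferon signature in lesions. The Y-linked gene Ddx3y had 2507 to 7084 counts in all 12 node libraries. Xist had 42 counts in TG 11 and 3 to 15 counts in the other 11.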

How the data were processed

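RNA from strained lymph nodes was sequenced as poly-A libraries with 151-base paired reads. Per the submitters' processing notes and the study's methods, the authors trimmed reads with cutadapt 4.8, checked them with FastQC 0.11.8 and MultiQC 1.20, aligned them to GRCm38 with STAR 2.7.8a and estimated counts with RSEM 1.3.3. The deposited expected counts per gene hold whole numbers, with no normalization. The strandedness of the counting and the annotation release are not given in the sources used here, so reads of overlapping genes may be mixed.

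R 4.3.3 was used for the node table of 55491 genes. The filterByExpr function in edgeR 4.0.16 (minimum count 10, minimum total 15) passed 16173 of them. All 12 node libraries were fitted together with TMM scaling, 4 groups and edgeR's robust quasi-likelihood F-test, with Benjamini-Hochberg adjustment over all tested genes and a threshold of 0.05. Skin was fitted separately (19101 genes). Intervals cover 95%. A gene was called separated when the libraries of 2 groups did not overlap. CPM are TMM-scaled, and list levels use a prior count of 2. Gene positions are those of GENCODE M21.

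The 41 gene lists, the comparisons and the rule for named genes were chosen with earlier results of these data known. The rule takes Ifnk, the 5 genes of lowest p in each direction, genes called in a list and the 4 most abundant members of each interferon list; other names are given as chosen after their values were seen, and members of a list named to describe it, as well as the split of ISGs by role, were also chosen after their values were seen. The alternatives were DESeq2 1.42.0, RLE and upper-quartile scaling, 2 other filters, the 6 unirradiated libraries alone, no robust estimation, Xist as a covariate, antigen receptor genes left out of the scaling, a threshold of 0.01, a test against a 1.2-fold change, and each unirradiated library left out in turn. Tested on simulated counts of this comparison with 16173 genes, edgeR recovered 38% of 50 genes changed 1.5-fold, 80% of those changed 2-fold, 92% at 3-fold and 94% at 4-fold, with 6.75% of calls false. The simulated counts were drawn gene by gene, without shifts shared by whole libraries, and only genes above a minimum level were changed. In the real counts 26 ISGs were at least 2-fold lower by fitted fold and 0 were called, so the simulated shares do not carry over to them. Counts of replicate libraries differed by more than sampling noise in every pair, so that each library was counted as 1 sample. A few single-gene results are not reported here.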

Additional observations from a re-analysis of the deposited data

Results flagged for a closer look

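Of the genes named, 4 were separated between genotypes in one direction without UVB and in the opposite direction after it. The interaction (log2 fold change after UVB minus that without) was -0.77 for Safb (edgeR unadjusted p = 0.000108), -0.77 for Safb2 (edgeR unadjusted p = 0.00194), -0.85 for Jun (edgeR unadjusted p = 0.000845) and 0.30 for Calr (edgeR unadjusted p = 0.039). Safb, Safb2 and Jun were higher in Ifnk TG nodes without UVB and lower after it, and Calr was lower and then higher. The adjusted p from edgeR was 0.848 in each, so that none passed.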

How the results depend on the processing

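No paired analysis was possible because the labels number the node libraries 1 to 12 and the groups share no number. With DESeq2, 4 genes were called in unirradiated nodes (2 higher and 2 lower in Ifnk TG), 1 of them also after UVB in the same direction, 12 genes were called after UVB and 8 for the interaction. Without a filter on low counts 1 gene (Gm43802) was called after UVB. Tested against a 1.2-fold change, 278 genes had an unadjusted p under 0.05. Leaving out single libraries gave 0 to 1 called genes in unirradiated nodes, 0 to 1 of them higher, and 0 to 1 for the interaction. The 1 gene was Arf5, without WT 3 (log2 fold change 2.97, edgeR adjusted p = 8.79e-06; interaction -2.06, edgeR adjusted p = 0.00668). The number of genes with an unadjusted p under 0.05 ranged from 345 (without TG 5) to 705 (without WT 1), and that of ISGs lower with an unadjusted p under 0.05 from 22 (without WT 2) to 42, where the latter left out TG 11, an alternative chosen after seeing the data. The median of the ISGs stayed below 0 throughout, from -1.21 to -0.58. Signs turned for 7 genes near 0. Stat3 was at 0.0045 with upper-quartile scaling and Ptpn6 at -0.013 with the Xist covariate, and leaving out single libraries gave ranges of -0.45 to 0.032 for Cd74, -0.42 to 0.043 for H2-Ab1, -0.14 to 0.086 for Ptpn6, -0.084 to 0.037 for Stat3, -0.052 to 0.13 for Irf1, -0.15 to 0.22 for Siglec1 and -0.12 to 0.00066 for Btbd9. The other 57 of 64 named genes kept their sign under every alternative. The causes of these changes were not tested. With 3 libraries a group, changes of 1.5-fold were mostly missed in the simulated data.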

Other observations

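Arf5, a small GTPase of membrane traffic, and its neighbour Fscn3, an actin-bundling protein of testis, split the node libraries in a way that followed neither genotype nor UVB fully. They lie side by side on chromosome 6 (chr6:28423560-28426602 and chr6:28427789-28438622 in GRCm38), 1187 bases apart, and Gcc1, on the other strand, spans Arf5 and the start of Fscn3. Arf5 had 336, 410 and 2981 counts in WT 1 to 3 and 3310, 3287 and 3063 counts in TG 4 to 6. Fscn3 had 18, 28 and 0 counts in the same WT libraries and 0, 1 and 0 counts in the Ifnk TG libraries. WT 3 was thus near the Ifnk TG libraries in both genes, and WT 1 and WT 2 were far from them in both. After UVB, Arf5 had 1346, 1112 and 1404 counts in WT and 2262, 1958 and 3147 counts in Ifnk TG nodes, where Fscn3 had 8, 31 and 18 counts and 0, 0 and 1 counts. Over the 12 node libraries, the 5 with 8 or more counts of Fscn3 had 336 to 1404 counts of Arf5, and the 7 with 1 or fewer had 1958 to 3310. Skin showed the same order, with 538 to 1900 counts of Arf5 in the 2 libraries with 13 to 15 counts of Fscn3 and 3763 to 10261 counts in the 7 libraries with 1 or fewer. Gcc1 differed by -0.07 between genotypes in unirradiated nodes. The genes were chosen after their values were seen, and nothing was tested as the cause.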
